A study of Mus musculus with 21 samples.

Results

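The genes described here are 7 genes of intestinal or ductal epithelium: Gp2, Dmbt1, Guca2a, Guca2b, Krt20, Vil1 and Cdx2. They were taken as every non-control probe of the arrays that carries one of these 7 names, which gave 8 probes among 39429, or 7 genes among 30161 named on the arrays. They were chosen by their levels in the tumours of Trp53 knockout mice, where most of them were strongly raised. The levels of those tumours against knockout livers and against the other tumours are therefore given below as a description with no test. Tests are given for carcinogen-induced tumour against wild-type liver and for knockout liver against wild-type liver, which did not choose the genes but share the carcinogen-induced tumours and the knockout livers with the contrasts that did.

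RNA was read on 21 one-colour microarrays of mice of C57BL/6J background. The knockout (KO) tumours were 6 tumours of 5 untreated Trp53 ko mice, labelled hepatocellular or cholangiocellular carcinoma (HCC/CCC), and the KO livers were 4 livers of untreated Trp53 ko mice. The DEN tumours were 7 hepatocellular carcinomas of 5 Trp53 wt mice injected intraperitoneally at day 15 with 10 µg per g body weight of N-nitrosodiethylamine (DEN), a liver carcinogen, and the wild-type (WT) livers were 4 livers of untreated Trp53 wt mice. The sources used here do not give the cells in which Trp53 was deleted, the deleted exons, the sexes or the ages. The mice of the tumours were read from the titles, and 2 tumours of 1 mouse were averaged before any comparison.

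Trp53 itself had log2 levels of -5.35 to -3.77 in KO tumours and -6.47 to -4.91 in the KO livers, against -3.10 to -2.19 in DEN tumours and -3.85 to -3.31 in WT livers, so every KO array lay below every DEN tumour, and the ranges of KO tumours and WT livers met at their edges. Whether the Trp53 probe lies in the deleted part is not known here. The 75th percentile of the probe intensities, which sets the scale of each array, was 951 to 4224 in KO tumours, 499 to 685 in the KO livers, 512 to 886 in DEN tumours and 478 to 730 in WT livers. No slide held arrays of more than 1 group. KO tumour arrays 4 to 6 (mouse 4 and both tumours of mouse 5) shared 1 brighter slide and scan day. A slide and scan day of their own held the WT livers, so that for them batch and group cannot be told apart. Hepatocyte genes were present throughout, and albumin (Alb) had log2 levels of 5.04 to 8.46 in KO tumours, 9.81 to 10.17 in the KO livers, 8.83 to 9.75 in DEN tumours and 9.29 to 9.76 in WT livers. All 12 of 12 hepatocyte genes were lower in KO tumours than in the KO livers, where 29.6% of the 23526 genes tested were called lower. In bulk samples, fewer cells of a type and less RNA per cell cannot be told apart.

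The lining of the gut is renewed from crypts, and its differentiated cells carry microvilli on an apical brush border. Guanylin (Guca2a) and uroguanylin (Guca2b) are small peptides secreted into the gut lumen. They bind the receptor guanylate cyclase C (Gucy2c), raise cyclic GMP, and through the kinase Prkg2 open the chloride channel Cftr and restrain the sodium-proton exchanger Slc9a3. Glycoprotein 2 (Gp2) is anchored to the membrane of zymogen granules in pancreatic acinar cells and, in the gut, to the apical surface of M cells, where it takes up bacteria carrying type I pili. Dmbt1 is a secreted scavenger-receptor glycoprotein of mucosal and ductal surfaces that binds bacteria. Keratin 20 (Krt20) is an intermediate filament protein of differentiated gut epithelium. Villin (Vil1) bundles actin in microvilli, and Cdx2 is a homeobox transcription factor that specifies intestinal epithelium.

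Each array probe is a stretch of 60 bases, and the value of a gene is what hybridised to that stretch. The first 30 bases of 4 of the probes are shown, because Gp2 is the only one of the genes read by a pair of probes and because the guanylins are related genes that could share signal. Coordinates are those of the whole probe in build mm9, as the array files give them.
Gp2, probe A_55_P1965882, chr7:126586058-126586117, minus strand: tcctttcaaaatgcctcttgttctgacagc
Gp2, probe A_55_P1965881, chr7:126590632-126590691, minus strand: agtagtagaccagccattgactataatcgg
Guca2a, probe A_51_P378210, chr4:119311857-119311916, plus strand: tacgctgcctgtacgggatgctagagtgac
Guca2b, probe A_55_P1957739, chr4:119329250-119329309, minus strand: atcctcccagcataaatggatccttagcaa
Over their full 60 bases, the Guca2a and Guca2b probes shared no run longer than 7 bases, and the pair of Gp2 probes none longer than 6. The longest run shared by any pair of the 8 probes was 8 bases, between Krt20 and Vil1. The other probes lay at chr7:138265063-138265122 on the plus strand (Dmbt1), chr11:99289776-99289835 on the minus strand (Krt20), chr1:74481982-74482041 on the plus strand (Vil1) and chr5:148112547-148112606 on the minus strand (Cdx2), all in mm9.

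Promoter sequence was at hand for 6 of the 7 genes, in RefSeq's table of build GRCm38.p6, and not for Dmbt1. The 250 bases before the gene start are printed for 4 genes that were high together in KO tumours, with searched motifs in capitals. The motifs were the CDX motif TTTATG, the TATA box TATAAA and the GATA motif AGATAA, each searched on both strands of the whole 300-base window, from 250 bases before to 50 after the gene start (the reverse complement of the TATA box, TTTATA, overlaps the CDX motif in its first letters).
Gp2, chr7:119459273-119459522, minus strand: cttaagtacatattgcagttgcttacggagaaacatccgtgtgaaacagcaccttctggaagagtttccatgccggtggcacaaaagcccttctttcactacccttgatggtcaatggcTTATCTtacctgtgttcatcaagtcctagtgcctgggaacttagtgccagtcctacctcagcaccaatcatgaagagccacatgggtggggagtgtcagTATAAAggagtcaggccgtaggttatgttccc
Guca2a, chr4:119637482-119637731, plus strand: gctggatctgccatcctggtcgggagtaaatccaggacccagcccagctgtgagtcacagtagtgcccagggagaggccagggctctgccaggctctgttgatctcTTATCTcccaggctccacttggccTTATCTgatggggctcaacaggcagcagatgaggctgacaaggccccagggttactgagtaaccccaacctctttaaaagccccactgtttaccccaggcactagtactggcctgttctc
Guca2b, chr4:119658946-119659195, minus strand: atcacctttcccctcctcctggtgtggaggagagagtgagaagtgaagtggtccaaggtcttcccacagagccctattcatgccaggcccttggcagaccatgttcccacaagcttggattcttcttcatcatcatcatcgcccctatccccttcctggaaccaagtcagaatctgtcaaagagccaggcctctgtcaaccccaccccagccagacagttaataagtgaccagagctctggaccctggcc
Krt20, chr11:99438154-99438403, minus strand: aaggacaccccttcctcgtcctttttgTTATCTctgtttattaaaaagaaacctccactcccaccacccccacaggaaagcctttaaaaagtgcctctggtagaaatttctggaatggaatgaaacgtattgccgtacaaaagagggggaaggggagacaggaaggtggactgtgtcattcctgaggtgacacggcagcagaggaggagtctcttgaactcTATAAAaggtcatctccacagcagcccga
A TATA box began at -32 in Gp2 and at -29 in Krt20, and 13.6% of the 32851 mouse promoter windows of the same length held this motif. The GATA motif, held by 11.2% of windows, was read on the opposite strand at -131 in Gp2, at -144 and -120 in Guca2a, and at -223 in Krt20. None of the 6 windows held the CDX motif, which 11.9% of windows held, and the windows of Guca2b, Vil1 and Cdx2 held none of the 3 motifs. These matches are a description of letters in the window. The genes Guca2a and Guca2b lie on chromosome 4 in opposite orientation, and no other gene start lay between theirs.

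All levels below are log2 intensities relative to the 75th percentile of their array, so that 0 is that percentile itself. A level is a property of 1 probe, and levels of different genes are not set against each other. A probe counted as detected on an array when its spots were marked as well above background. Of the 7 genes, 6 were detected on at least 4 of the 21 arrays and entered the fit, and Cdx2 was not. None of their spots was saturated.

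**Figure D1:**
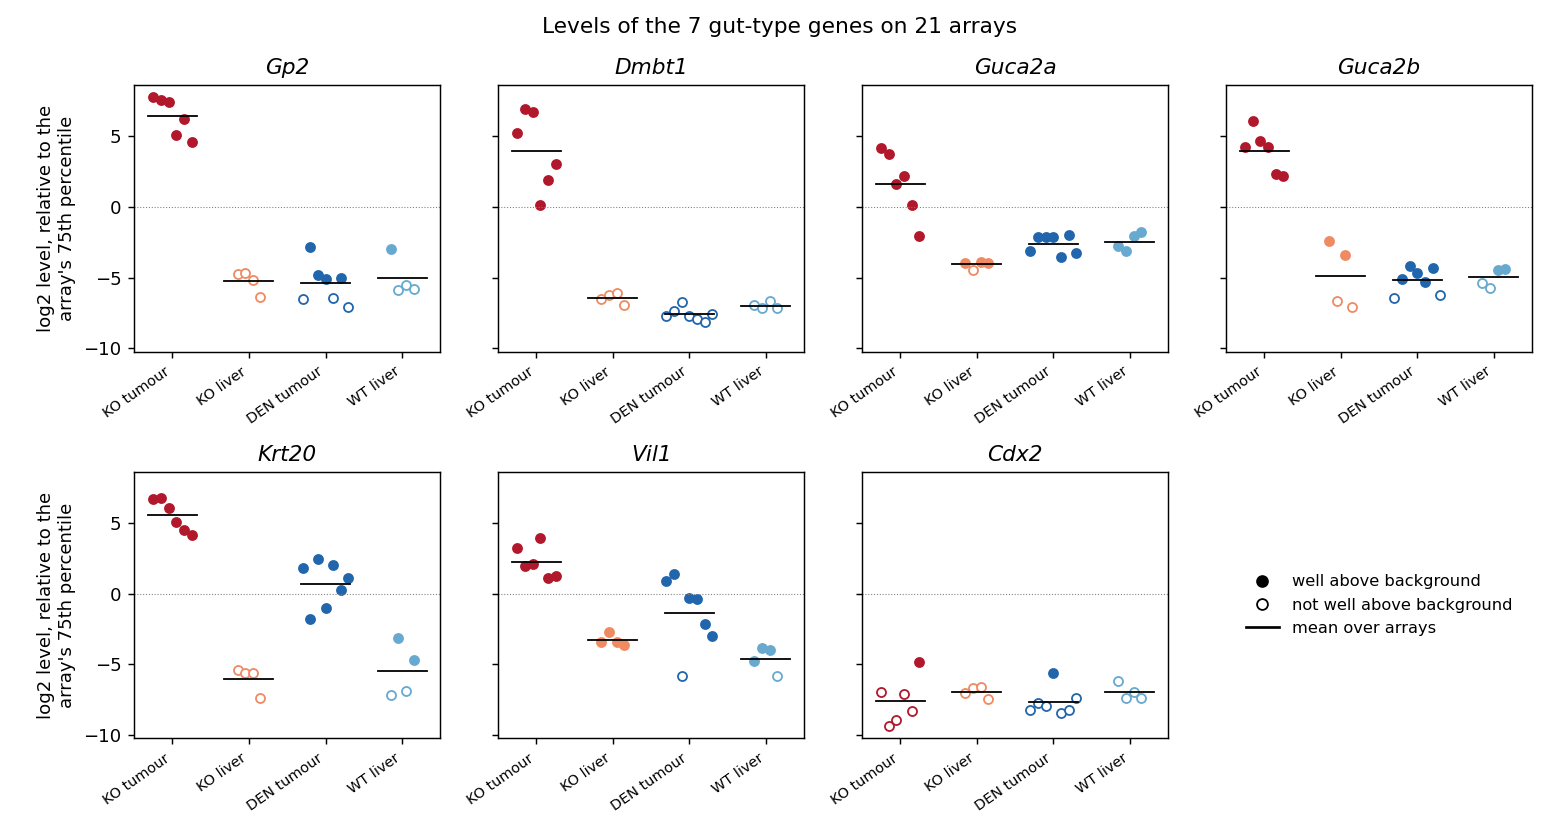
Log2 level of each gene on each of the 21 arrays, relative to the array's 75th percentile, by group, with filled points where the probe was well above background, open points where it was not, and a bar at the mean over arrays. The KO tumours lay above all other arrays for Gp2, Dmbt1, Guca2b and Krt20, the DEN tumours were intermediate for Krt20 and Vil1, and Cdx2 was detected on 2 arrays.

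Gp2, the bacterial uptake receptor, was high in every KO tumour and at or near background elsewhere. Its levels were 7.79, 7.59, 7.47, 5.07, 6.23 and 4.62 on KO tumour arrays 1 to 6. They were -4.74, -4.69, -5.15 and -6.39 in the KO livers, with none detected. In the DEN tumours the lowest, median and highest levels were -7.05, -5.11 and -2.82, with 4 of 7 detected, and the WT livers had -2.99, -5.87, -5.52 and -5.78, with 1 of 4 detected. No KO tumour came near the other groups. The KO tumour mean was 11.91 ± 0.79 log2 units above the KO liver mean (SE from the fit, 5 and 4 mice), a fold of at least 2599. Such a lower bound sets the mean of the higher group against the weakest signal that still counted as detected on the arrays of the lower group, or the probe's own signal where that was higher. It holds for this processing alone and does not take in the SE. Against DEN tumours the difference was 11.86 ± 0.75. The second Gp2 probe gave 6.36, 6.10, 5.69, 2.59, 4.54 and 2.10 in the KO tumours and at most -5.84 on any other array. Its difference between KO tumours and KO livers, 11.69, was close to that of the first probe.

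Dmbt1, the mucosal defence glycoprotein, had levels of 5.26, 6.93, 6.72, 0.12, 1.89 and 3.08 on KO tumour arrays 1 to 6. It was not well above background on any of the other 15 arrays, where its levels were -6.94 to -6.08 in the KO livers, -8.12 to -6.76 in DEN tumours and -7.16 to -6.67 in WT livers. The groups did not overlap, and the spread among KO tumours, 6.81 log2 units from the lowest to the highest, was the widest of the 7 genes. The KO tumour mean exceeded the KO liver mean by 10.74 ± 0.99 log2 units, at least 513-fold, and the DEN tumour mean by 11.81 ± 0.94, at least 1271-fold.

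Guca2a, the guanylin gene, had levels of 4.19, 3.78, 1.64, 2.18, 0.15 and -2.07 on KO tumour arrays 1 to 6. The KO livers had -3.94, -4.44, -3.87 and -3.94, the DEN tumours -3.53 to -1.98 with a median of -2.14, and the WT livers -2.78, -3.13, -2.05 and -1.80. Guca2a was detected in liver without tumour on 3 of 4 KO liver and 4 of 4 WT liver arrays, whereas Gp2 was detected there on 1 WT liver array and Dmbt1 on none. The last KO tumour, the second of mouse 5, lay within the range of the DEN tumours and WT livers, while the mean of mouse 5 lay above them. The KO tumour mean was 6.22 ± 0.72 above KO livers and 4.72 ± 0.68 above DEN tumours.

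Guca2b, the uroguanylin gene, had levels of 4.22, 6.09, 4.71, 4.22, 2.35 and 2.19 on KO tumour arrays 1 to 6. The KO livers were spread widely, at -2.38, -6.68, -3.42 and -7.11, and 2 of the 4 were detected. The DEN tumours ran between -6.45 and -4.19 with a median of -5.09, and the WT livers had -5.35, -5.71, -4.49 and -4.36. All KO tumours stood above all other arrays. The difference was 9.20 ± 0.88 log2 units from KO livers and 9.51 ± 0.83 from DEN tumours.

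Krt20, the keratin of differentiated gut epithelium, had levels of 6.71, 6.81, 6.09, 5.07, 4.50 and 4.16 on KO tumour arrays 1 to 6. The KO livers had -5.39, -5.61, -5.60 and -7.39, with none detected. The DEN tumours had -1.81 to 2.45 with a median of 1.13, all 7 detected, and the WT livers had -7.15, -3.15, -6.91 and -4.70, with 2 detected. For this gene the 4 groups fell into 3 steps that did not overlap: KO tumours, DEN tumours, and the livers of both genotypes. KO tumours exceeded KO livers by 11.80 ± 0.89 log2 units, at least 1450-fold, and DEN tumours by 5.07 ± 0.84.

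Vil1, the microvillar actin bundler, had levels of 3.26, 1.96, 2.14, 3.95, 1.14 and 1.26 on KO tumour arrays 1 to 6. The KO livers had -3.41, -2.73, -3.42 and -3.65, the DEN tumours -5.82 to 1.39 with a median of -0.36, and the WT livers -5.85 to -3.81 with a median of -4.36. The DEN tumours were the most scattered group, and 1 of the 7, array 2 at 1.39, lay within the range of the KO tumours. The KO tumour mean was 5.80 ± 1.08 above KO livers and 3.79 ± 1.02 above DEN tumours. Without DEN mouse 3, whose tumour had the lowest level, the difference from DEN tumours was 2.65.

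Cdx2, the intestinal homeobox factor, was detected on KO tumour array 6, at a level of -4.84, and on DEN tumour array 4, at -5.62. On the other 19 arrays its levels were -9.38 to -6.21 and not well above background. At this detection the data give no order of the 4 groups for Cdx2. Its relative Cdx1, which passed the filter, differed by 0.50 ± 0.39 log2 units between KO tumours and KO livers (adjusted p = 0.29).

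Between KO tumours and KO livers the mice did not overlap for any of the 6 genes, where 51.1% of all genes tested changed and 21.6% were called higher. Between KO tumours and DEN tumours they did not overlap for 5 of 6, Vil1 being the exception, where 57.4% of genes changed and 19.9% were called higher. The shares are of genes called by limma's adjusted threshold, and the share of all genes whose mice did not overlap was not counted. These contrasts chose the genes, and the counts carry no further weight. On the scan day shared by KO tumour arrays 1 to 3, the KO livers and DEN tumour arrays 1, 5 and 7, the differences from KO livers were 12.86 for Gp2, 12.73 for Dmbt1, 7.26 for Guca2a, 9.91 for Guca2b, 12.53 for Krt20 and 5.75 for Vil1. The differences from DEN tumours on that day were 14.28 for Gp2, 14.05 for Dmbt1, 6.48 for Guca2a, 11.01 for Guca2b, 4.87 for Krt20 and 3.27 for Vil1. These arrays are among those that chose the genes, so their direction, the same as over all arrays, carries no further weight. The sizes depended on the processing. With normexp correction and quantile scaling, which change the background correction and the scaling together, the differences from KO livers were 9.75 for Gp2, 7.57 for Dmbt1, 4.63 for Guca2a, 7.07 for Guca2b, 9.11 for Krt20 and 4.59 for Vil1. For Gp2, Dmbt1 and Krt20 these lay below the lower bounds of fold given above.

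**Figure D2:**
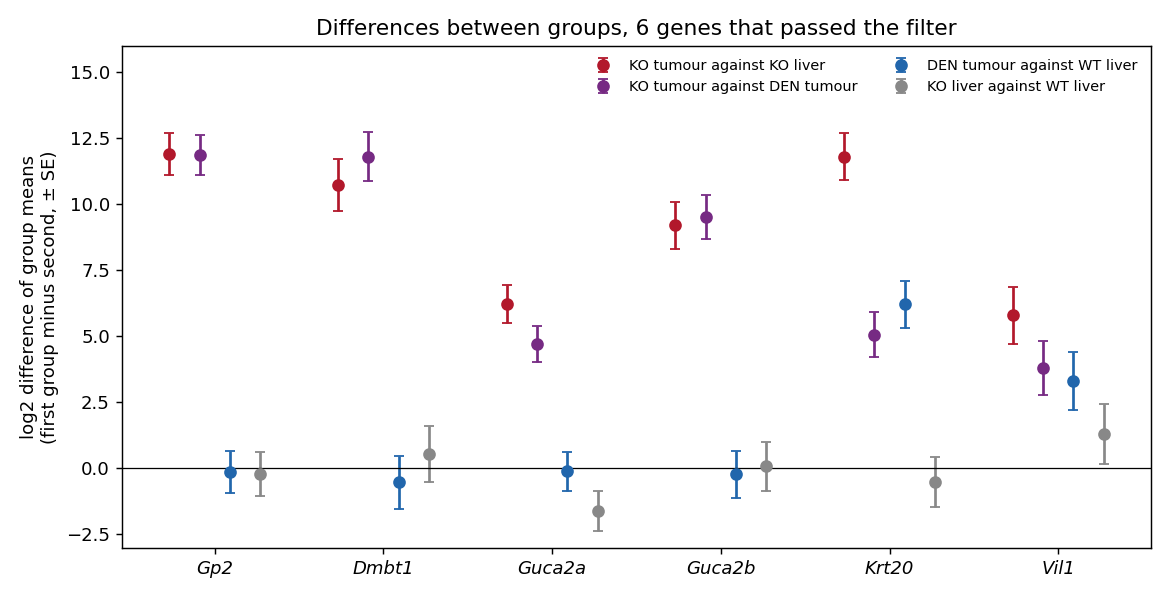
Log2 difference of group means, first group minus second, with SE, for the 6 genes that passed the filter, in 4 comparisons. The differences of KO tumours from KO livers ran between 5.80 and 11.91, and those of KO livers from WT livers between -1.61 and 1.30.

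The comparison of DEN tumours with WT livers asked which of the genes were also high in tumours with intact Trp53. Dmbt1, which entered the fit through the KO tumours alone and was not detected on any array of either group, could not be compared here. Of the other 5 genes, 2 rose, Krt20 and Vil1, where 10.6% of all genes tested were called higher and 21.6% changed in either direction. Krt20 averaged 0.73 ± 1.64 in DEN tumours and -5.48 ± 1.91 in WT livers (SD, 5 and 4 mice), a difference of 6.21 ± 0.89 log2 units (limma, adjusted p = 0.00014), and the mice did not overlap. The call held under all 26 other settings, with adjusted p between 4.8e-05 and 0.023. The difference was 3.66 with normexp correction and quantile scaling. Vil1 averaged -1.28 ± 2.96 in DEN tumours and -4.60 ± 0.92 in WT livers, a difference of 3.31 ± 1.08 (adjusted p = 0.038), and the mice overlapped. That call held under 18 of 26 settings, with adjusted p between 0.00084 and 0.41. It was lost with the slide as a random block (0.41), without any 1 WT liver (0.0553 to 0.0999) and without DEN mouse 1 (0.084), 2 (0.096) or 4 (0.076). Gp2, Guca2a and Guca2b did not pass the test. Their differences were -0.15 ± 0.79 for Gp2, -0.11 ± 0.72 for Guca2a and -0.23 ± 0.88 for Guca2b (adjusted p of 0.89 to 0.94). For Gp2 the probe was at or near background in both groups. Guca2b was detected in 5 of 7 DEN tumours and 2 of 4 WT livers, so background limits its comparison too.

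The comparison of KO livers with WT livers asked whether loss of Trp53 without a tumour altered the genes. Dmbt1 was not detected in either group, and Gp2 and Krt20 were not detected in the KO livers, so that background limits what could be called for these 3. None of the other 3, Guca2a, Guca2b and Vil1, passed the limma test, at the adjusted threshold or at an unadjusted p of 0.05, where 8.50% of all genes tested changed, 1.83% upwards and 6.66% downwards. Guca2a was nearest, with -4.05 ± 0.26 in the KO livers and -2.44 ± 0.62 in WT livers (SD, 4 mice each), a difference of -1.61 ± 0.76 (adjusted p = 0.22). The mice did not overlap, since the highest KO liver had -3.87 and the lowest WT liver -3.13. It was called lower under 2 of 26 settings, without KO tumour mouse 5 (0.044) and without the brighter slide (0.033), both of which change only the spread that the groups share. Over all 26 settings its adjusted p ran between 0.033 and just under 1, and the difference was -0.66 with normexp correction and quantile scaling. The differences of Guca2b and Vil1 were 0.08 ± 0.93 and 1.30 ± 1.14. Guca2b was detected in 2 of 4 livers of each genotype, so background limits its comparison too. For Vil1 all KO livers, from -3.65 to -2.73, lay above all WT livers, from -5.85 to -3.81 (adjusted p = 0.55).

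The KO tumours differed widely among themselves. The range over the 6 arrays was 3.16 log2 units for Gp2, 6.81 for Dmbt1, 6.27 for Guca2a, 3.90 for Guca2b, 2.64 for Krt20 and 2.81 for Vil1, which for Dmbt1 is a 112-fold and for Krt20 a 6.23-fold span. For Gp2, Dmbt1 and Krt20 every array of the brighter slide was lower than every array of the other KO tumour slide, and for Guca2b the slides met at 4.22. For Guca2a and Vil1 the slides overlapped, and KO tumour array 4, on the brighter slide, had the highest Vil1 and the lowest Dmbt1. That slide also holds mice 4 and 5 alone, so for the KO tumours slide and mouse cannot be told apart. The duct keratin Krt19 was at -3.98 on KO tumour array 4, below the KO livers (-3.54 to -2.90), against 1.05 to 3.41 on the other KO tumour arrays. Epcam, an adhesion protein of duct epithelium, had 0.24 on array 4 and 1.38 to 3.09 on the other arrays. The tumours of mouse 5 differed from each other by 1.61 for Gp2, -1.20 for Dmbt1, 2.22 for Guca2a, 0.16 for Guca2b, 0.33 for Krt20 and -0.12 for Vil1 (array 5 minus array 6). Across the 6 arrays the 15 pairs of genes had Pearson correlations of -0.21 (Dmbt1 and Vil1) to 0.91 (Guca2a and Krt20), with a median of 0.67. Over the 5 mice the median was 0.63, and with normexp and quantile scaling 0.66. The arrays share slides, so these are descriptions, and Vil1 was the gene least like the others, with 0.08 to Gp2 and 0.39 to Krt20, though 0.63 to Guca2a.

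**Figure D3:**
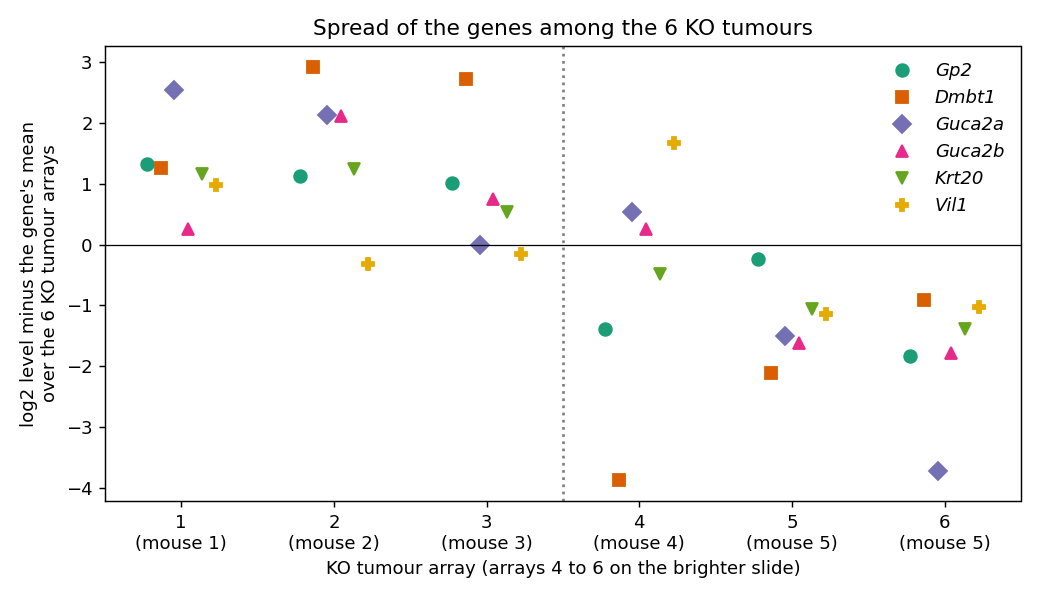
Log2 level of each gene on each KO tumour array, minus the gene's own mean over the 6 arrays, with the dotted line separating the 3 arrays of the brighter slide. Arrays 1 to 3 lay above arrays 4 to 6 for Gp2, Dmbt1 and Krt20, while Vil1 was highest on array 4.

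The receptor and effectors of the guanylins were listed apart from the ligands, which were chosen for their levels in KO tumours. Of the 6 genes of the pathway list, 1 was higher in KO tumours than in the KO livers and none lower, and 1 of 6 is near the 21.6% of all genes called higher. That gene was Prkg2, the cyclic GMP kinase, with levels of -3.80 to -1.42 in KO tumours and -6.75 to -6.25 in the KO livers, where it was not detected, a difference of 3.81 ± 0.52 (adjusted p = 1.5e-05). The receptor Gucy2c was detected on all 21 arrays. Its levels were -4.99 to -4.04 in KO tumours and -4.26 to -3.04 in the KO livers, a difference of -0.84 ± 0.67 (adjusted p = 0.3). In DEN tumours they were -3.26 to 1.28 and in WT livers -4.03 to -2.69. Against DEN tumours, 2 pathway genes were higher in KO tumours and 4 lower, where 19.9% and 37.5% of genes were called in those directions. Prkg2 was higher by 3.98 ± 0.49 and the chloride channel Cftr by 3.28 ± 0.52, and Gucy2c was lower by 2.92 ± 0.63 (adjusted p = 0.00095). Cftr had -4.65 to -2.49 in KO tumours and -3.41 to -2.49 in the KO livers, a difference of -0.33 ± 0.55 (adjusted p = 0.64). In DEN tumours it had -7.81 to -4.94, with 2 of 7 detected. There it was 2.38 ± 0.55 below WT livers (adjusted p = 0.0056), a call lost with the slide as a random block (0.19). In KO tumours against DEN tumours the anion exchangers Slc26a3 and Slc26a6 fell by 2.55 ± 0.33 and 0.89 ± 0.34. The sodium-proton exchanger Slc9a3 fell by 2.02 ± 0.69. Slc26a3 was detected in 2 of 6 KO tumours and 7 of 7 DEN tumours, so background limits the size of its fall. With the slide as a random block the calls of Gucy2c (0.053), Slc26a6 (0.19) and Slc9a3 (0.27) were lost. The call of Slc9a3, detected in 3 of 6 KO tumours, was also lost within the shared scan day (0.56).

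M cells are the antigen-sampling cells of the gut that carry Gp2. All 5 of 5 genes of the M cell list rose in KO tumours against KO livers, with a median change of 2.32 against -0.22 over all genes, and 3 rose against DEN tumours, where 21.6% and 19.9% of all genes were called higher. With the slide as a random block these counts were 3 and 2. All 5 genes were detected on every array of the 4 groups, livers without tumour included, so their detection does not mark M cells here. Whether M cells were present was not tested. Spib, the transcription factor that M cells need, had levels of 3.20 to 6.26 in KO tumours, -2.93 to -2.69 in the KO livers, -4.97 to -1.70 in DEN tumours and -3.08 to 0.12 in WT livers. Its difference was 7.33 ± 0.67 from KO livers (adjusted p = 3.3e-07) and 8.36 ± 0.64 from DEN tumours (adjusted p = 1.4e-07). B cells carry Spib too, and their summed level, over Ms4a1, Cd79a, Cd79b and Pax5, was -0.73 to 4.12 in KO tumours, -0.58 to -0.21 in the KO livers, -0.71 to 1.11 in DEN tumours and 0.08 to 2.76 in WT livers. The 4 B cell genes were listed after the values of Spib were seen. Between KO tumours and KO livers 0 of 4 passed limma's adjusted threshold, while 3 of 4 were higher at an unadjusted p under 0.05, and against DEN tumours 2 rose and 1 fell. Their part in the level of Spib was not tested.

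Gp2 is also the main granule membrane protein of the exocrine pancreas, and 16 of 19 acinar genes could be tested. In KO tumours 2 of them rose and 5 fell against KO livers, and none rose and 11 fell against DEN tumours. Of all genes tested, 21.6% were called higher and 29.6% lower against KO livers, and 19.9% and 37.5% against DEN tumours. The summed level of the acinar genes was -0.50 to 2.07 in KO tumours and 2.36 to 2.72 in the KO livers. It was 2.52 to 3.30 in DEN tumours and 2.53 to 2.92 in WT livers. Every KO tumour lay below every other array in this sum of unlogged levels, in which bright genes weigh most. Of the 16 genes, 8 to 14 were detected per KO tumour and 7 to 9 per KO liver. The DEN tumours had 11 to 16 and the WT livers 9 to 11. The part of acinar cells in the level of Gp2 was not tested. For the lists in this and the next paragraphs, a count of 0 risen or fallen by limma's adjusted threshold was 0 at an unadjusted p under 0.05 as well. The 2 genes risen against KO livers were Cela1 and the acinar transcription factor Bhlha15. Bhlha15 was detected on every KO tumour array, at -3.70 to 0.20, and on no KO liver array (-6.99 to -5.82). In DEN tumours it had -2.02 to 1.39. Its difference from KO livers was 4.37 to 5.25 with any 1 mouse left out (limma, adjusted p at most 0.00061). The call of Cela1 was lost with the slide as a random block (0.10) and with normexp and quantile scaling (0.056). It was also lost with scan day as a fixed block (0.062) and within the shared scan day (0.061). Another acinar transcription factor, Ptf1a, and the pancreatic lipase Pnlip did not pass the filter.

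Other markers of the gut were mixed. The enterocyte list, with fatty acid binding, digestive and transport proteins, had 0 of 9 risen and 4 fallen in KO tumours against KO livers (21.6% and 29.6% of all genes), among them Fabp1 by 3.98 ± 0.82. With the slide as a random block 1 enterocyte gene was called lower. In the KO livers, which held no tumour, 4 to 5 of the 9 were detected, with a summed level of 8.88 to 9.35. In KO tumours the summed level was 4.535 to 6.45. The fall was thus one from levels already present in liver without tumour, and enterocyte identity was not tested. The brush border list held 5 risen and 3 fallen of 13. Ezrin (Ezr), which ties microvillar actin to the membrane, rose by 3.66 ± 0.29, and the scaffold Slc9a3r1 fell by 1.20 ± 0.25. The gut transcription factor list held 5 risen and 5 fallen of 12. The epithelial factors Klf5 and Klf4 rose by 6.26 ± 0.79 and 3.22 ± 0.35, and Hnf4a, which is shared by liver and gut, fell by 2.63 ± 0.36. Of 8 goblet and Paneth genes tested, 5 rose and none fell. Fcgbp, a mucus protein, rose by 8.50 ± 0.75, and the membrane mucin Muc13 by 7.86 ± 0.88. Tff3, the goblet trefoil peptide, was higher in KO tumours than in the KO livers by 3.76 ± 1.24, but lower than in DEN tumours by 5.41 ± 1.17 (levels of -2.79 to 3.94 in KO tumours and 3.32 to 8.34 in DEN tumours).

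The mucosal defence and duct lists held mostly risen genes. Of 11 mucosal defence genes 8 rose and 1 fell in KO tumours against KO livers, and 9 rose and 1 fell against DEN tumours. The shares of all genes called higher and lower were 21.6% and 29.6% in the first comparison and 19.9% and 37.5% in the second, here and for the duct genes that follow. The antibacterial lectin Reg3g had levels of 2.91 to 6.59 in KO tumours, against -7.09 to -6.24 in the KO livers and -8.03 to -4.20 in DEN tumours. It rose by 11.80 ± 0.69 against KO livers (adjusted p = 1.2e-08), at least 974-fold, and the related Reg3 genes may share its signal. Of 14 duct epithelium genes 12 rose and 1 fell in KO tumours against KO livers, and 7 rose and 1 fell against DEN tumours. The fallen gene was the tight junction protein Cldn3, whose call against KO livers was lost with normexp and quantile scaling (0.54) and with the slide as a random block (0.11). With the slide as a random block the risen duct genes were 6 and 4. The summed level of the duct genes was 7.50 to 9.14 in KO tumours and 7.15 to 7.52 in the KO livers. In DEN tumours it was 8.18 to 8.59. For the mucosal defence genes the sum was 6.48 to 8.46 in KO tumours and 6.75 to 7.41 in the KO livers. In DEN tumours it was 5.33 to 7.53. KO tumour array 5 lay below the highest KO liver in both sums, in which bright genes weigh most. Epcam rose by 6.43 ± 0.78, the duct factor Sox9 by 4.68 ± 0.37 and the secreted protein Spp1 by 5.90 ± 0.51 against KO livers. Between DEN tumours and WT livers, the comparison in which Krt20 and Vil1 rose, 7 of 14 duct genes rose and none fell, and 4 of 13 brush border genes rose and 4 fell, where 10.6% of all genes were called higher and 11% lower. With the slide as a random block 2 duct genes and 2 brush border genes were called higher there, and none lower. In this comparison the brush border protease Mep1a rose by 6.22 ± 0.70 (adjusted p = 1.4e-05) and the microvillar bundler Pls1 by 3.57 ± 0.36. Both were detected in 0 of 4 WT livers, so background limits the sizes. Another Pls1 probe differed by only 0.61.

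**Figure D4:**
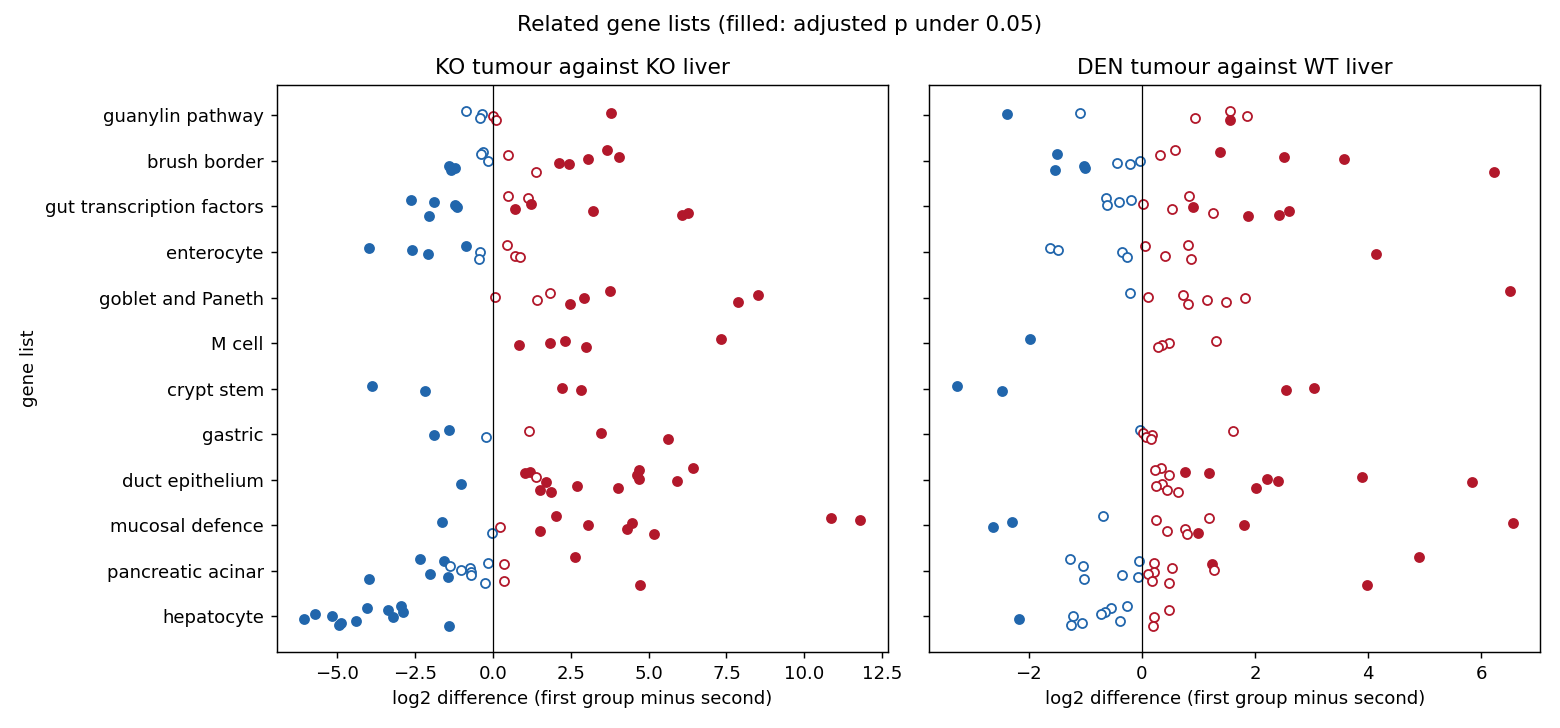
Log2 difference of each gene of 12 lists, for KO tumours minus KO livers on the left and DEN tumours minus WT livers on the right, with filled points at an adjusted p under 0.05. In KO tumours the M cell list had 5 of 5 genes risen and the hepatocyte list 12 of 12 fallen, while the guanylin pathway list had 1 of 6 risen.

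The genes whose levels ran most like each of the 6 over the 21 arrays were found by Pearson correlation. The arrays fall into 4 groups that set most of this likeness, so the values are a description. For Gp2 they were Reg3g (r = 0.984), Aif1l (0.981) and Amph (0.976). For Dmbt1 they were Sox8 (0.989), a transcript known by the name TC1600377 (0.978) and Nlrp10 (0.978). For Guca2a they were Umod (0.963), Fcho1 (0.956) and Scg5 (0.952), while for Guca2b they were Nlrp10 (0.968), Amph (0.964) and Reg3g (0.961). The guanylin genes, neighbours on chromosome 4, correlated with each other at 0.83 over the 6 KO tumour arrays. They shared none of their nearest 3 genes over the 21 arrays, and Guca2b shared 2 with Gp2 and 1 with Dmbt1. For Krt20 they were Pglyrp1 (0.955), Vsig10 (0.953) and Eif2ak2 (0.951), and for Vil1 they were Klf6 (0.921), Miga1 (0.919) and Glis2 (0.915). Umod, the gene of uromodulin, a kidney protein of the same zona pellucida domain family as Gp2, exceeded its KO liver level in KO tumours by 9.09 ± 0.84 log2 units, at least 207-fold.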

How the data were processed

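Cy3-labelled RNA of 21 mouse livers and liver tumours was hybridised to 1 Agilent array each. Images were quantified by the authors in Agilent Feature Extraction 10.7.3.1, per the submitters' processing notes. The deposited array files hold the processed intensity of every spot, with flags for background, saturation and outliers. The authors' deposited series table is in log2 units, and each of its columns correlated at 0.9997 or more with its own array after centring on the probe median (best other array 0.858). Its column medians were -0.573 to 0.297.

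Outlier spots were left out, spots of a probe averaged as log2, and the array's 75th percentile subtracted. Probes well above background on at least 4 arrays were kept (30397 of 39429), and the probe with the highest mean stood for a gene (23526 genes). RefSeq gave the names by main accession (26761 probes), another accession (102) or symbol (4369), and 8197 probes had only the name of the files. Tumours of 1 mouse, read from the titles, were averaged (18 mice).

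One limma model (limma 3.58.1 in R 4.3.3, with 4 group means and 2.62 prior degrees of freedom) was fitted across all genes, with Benjamini-Hochberg adjustment per comparison and a threshold of 0.05. The fit was tested on simulated data. Extraction and figures used Python 3.11.15 with matplotlib 3.10.9. Whether the mice were littermates is not given, and p-values measure the spread between these mice.

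The 7 genes and the 12 gene lists (128 of 129 names found on the arrays, 116 tested) were chosen with earlier results of these data known. Named genes were the 7, Trp53, Alb, Epcam and Krt19, the whole guanylin pathway list, up to 2 risen and 2 fallen genes of each list with the smallest adjusted p, and the 3 genes most correlated with each of the 7. Cdx1, Ptf1a, Pnlip and the B cell list were added after their values were seen. Alternatives were normexp background correction (offset 50) with quantile scaling, another scaling percentile, the authors' values, no filter, the mean of a gene's probes, mouse, slide or scan day as a block, the shared scan day alone, each mouse left out, and, chosen after seeing the data, the brighter slide left out. A comparison of the proteins was not run. Some genes and a motif that these rules would name are not reported here.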

Additional observations from a re-analysis of the deposited data

Results flagged for a closer look

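In 32 sets of one probe and one group, each of 4 or 5 mice, the highest or lowest value was set against the others with Dixon's criterion, which chance alone meets in about 1 set in 20. It was met in 3. Gp2 was at -2.99 in WT liver mouse 1, the one WT liver in which it was detected, and the nearest other WT liver had -5.52. Guca2a was at -4.44 in KO liver mouse 2, the one KO liver in which it was not detected, and the nearest other KO liver had -3.94. Krt20 was at -7.39 in KO liver mouse 4, below background like the other KO livers, the nearest of which had -5.61.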

How the results depend on the processing

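No difference of a single gene that was called or used in the choice changed sign, but some small uncalled ones did, as Gp2 in KO livers against WT livers, at 0.08 with the mean of its probes (from -0.20), and Dmbt1 in DEN tumours against WT livers, at 0.02 with normexp and quantile scaling (from -0.53). With normexp correction and quantile scaling the differences of KO tumours from KO livers shrank to 9.75 for Gp2, 7.57 for Dmbt1, 7.07 for Guca2b, 9.11 for Krt20 and 4.59 for Vil1, and those from DEN tumours to 9.85 for Gp2, 7.60 for Dmbt1 and 7.55 for Guca2b. With scan day as a fixed block the differences from DEN tumours were 14.10 for Gp2 and 11.01 for Guca2b, and within the shared day 14.28 and 11.01. The cause was not tested. Without 1 mouse, the difference of Vil1 between KO and DEN tumours ran from 2.65 to 4.46. For Vil1 between DEN tumours and WT livers it ran from 2.64 to 4.45, and it was 3.31 with the slide as a random block, where the call was lost. Guca2a between KO and WT livers was -1.84 to -1.40 without 1 mouse, and -1.61 without the brighter slide, where it was called.

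Counts of genes over the whole array moved with the slide as a random block, to 2854 higher and 3807 lower in KO tumours against KO livers (from 5078 and 6954), 2900 higher against DEN tumours (4672), 297 and 125 in DEN tumours against WT livers (2491 and 2580), and 7 and 4 in KO livers against WT livers (431 and 1568), so that in the last 2 comparisons the balance turned to higher calls. With no filter 11415 genes were lower in KO tumours than in KO livers. In KO livers against WT livers 852 were lower with mouse as a random block, 855 higher without the brighter slide, and 150 to 570 higher and 506 to 1836 lower without 1 mouse. The median change of all genes was -0.22 in KO tumours against KO livers and -0.33 against DEN tumours, and -0.01 and -0.04 with normexp and quantile scaling, where the share of lower calls was 48.9% and 52.9% in place of 57.8% and 65.4%, so that against KO livers higher calls (5947) outnumbered lower ones (5699). For KO livers against WT livers this share was 65.5% in place of 78.4%. No paired analysis was possible because no label ties a tumour to a liver. Of the values for other named genes and lists under other settings, 184 lost a call, 13 gained one and 206 moved, against 5867 that did not. Signals at background limit the livers: no differences below it can be measured for Gp2, Dmbt1, Krt20 and Cdx2. The same limit holds in part for Guca2b, detected in 2 of 4 KO livers and 2 of 4 WT livers.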

Other observations

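Genes of the stomach and of the crypt were mixed. Of 6 stomach genes tested, 2 rose and 2 fell in KO tumours against KO livers, and 2 rose and 3 fell against DEN tumours. Of all genes, 21.6% were called higher and 29.6% lower against KO livers, and 19.9% and 37.5% against DEN tumours. Among the fallen was Gkn1, which was not detected on any KO tumour or KO liver array, so that its difference there is one between background values. Anxa10, an annexin of gastric epithelium, had levels of -2.32 to 0.91 in KO tumours, -7.07 to -6.51 in the KO livers and -8.48 to -5.36 in DEN tumours, a rise of 5.63 ± 0.55 against KO livers (adjusted p = 5.9e-07). The gastric mucin Muc5ac fell by 1.90 ± 0.25. Of 4 crypt genes tested, 2 rose and 2 fell in KO tumours against KO livers, and likewise in DEN tumours against WT livers, where 10.6% of all genes were called higher and 11% lower. The stem cell receptor Lgr5 fell by 3.87 ± 0.94 and 3.28 ± 0.94 in these comparisons, and the matrix protein Smoc2 rose by 2.82 ± 0.30 and 2.55 ± 0.30. With the slide as a random block the calls of Lgr5 (adjusted p = 0.098 and 0.46) were lost, as was that of Smoc2 in DEN tumours (0.071). Apoa4, an apolipoprotein of gut and liver, rose in DEN tumours by 4.13 ± 0.62 and was lower in KO tumours than in DEN tumours by 5.57 ± 0.58. The rise in DEN tumours was lost with the slide as a random block (0.07).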
